A study of Mus musculus with 16 samples.

Results

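Potassium channel genes were taken as all genes whose name begins with Kcn and that held 10 or more counts summed over the 16 libraries. The rule found 92 of the 37583 genes in the count data, and 4 further Kcn entries stayed under the minimum, with 7 counts each for Kcne1 and Kcnmb3, 2 for Kcnj1 and 0 for Kcnk16. The lowest entries kept were Kcnk18 with 10 counts, Kcnj15 with 12 and Kcna7 with 14. The 92 entries carry 90 names, since Kcnb2 and Kcnh8 are each split over 2 Ensembl entries. Kcnrg is named as a regulator of channels rather than a channel and is kept because its name fits. RNA of the cortex and of the cerebellum was sequenced from 4 wild-type animals and from 4 that are labelled Slc39a8 A391T (A393T) mutant, all C57BL/6J, which gives 4 libraries in each of 4 groups. Slc39a8 encodes a metal ion transporter, and A391T is a missense change in it. The methods describe the wild-type animals of the RNA work as male and 12 weeks old, with both regions taken from one animal, the cortex from its frontal part and the brain not perfused. The age and sex of the A391T mice, and whether they carry 1 or 2 mutant alleles, are not given in the sources used here.

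Potassium channels let potassium ions leave the cell and so pull the membrane toward rest. Voltage-gated families repolarise the action potential and set how fast a neuron can fire, inward rectifiers and two-pore channels hold the resting potential, and calcium- or sodium-activated channels brake repetitive firing. Several families include subunits that form no channel alone and only change the channels of other families, and others of the Kcn names belong to auxiliary proteins. Neuron types differ in the set they use, fast-firing cells such as cerebellar Purkinje cells being known for Kv3 channels. Glia and the choroid plexus use inward rectifiers of their own.

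Levels are given in TPM, in which each count is divided by gene length and each library is scaled to the same total, and 4 values in a row are those of mice 1 to 4 of a genotype. Differences are log2 fold changes of counts scaled by TMM factors, with their standard error (SE), and can differ from ratios of TPM. A gene was called where its adjusted p was under 0.05 and its change at least 2-fold, and a call for higher expression is always cerebellum over cortex or A391T over wild type. The libraries held 20813432 to 30497206 counts on genes, of which 109297 to 187624 fell on the 92 members. The mRNA of Slc39a8 itself lay at 2.14 ± 0.579 TPM (SD, n = 4) in wild-type cortex and 2.46 ± 0.361 in A391T cortex, and at 2.75 ± 0.302 and 2.58 ± 0.189 in cerebellum. A missense allele leaves the transcript in place, so these levels do not check the genotype. In the deposited RPKM table, 8 of the 16 columns carry names that belong to other animals than the count data with the same values, so that A391T mice 3 and 4 change places with wild-type mice 1 and 2. The sample titles were followed here, and which of the sources is right could not be told from the data. The A391T cerebellum library of mouse 1 stood apart from the other 7 cerebellum libraries, and where it decides the value of a named member, the value without it is given too.

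The regions were identified by markers. All 7 cortical projection neuron markers were called higher in wild-type cortex, and all 6 granule cell and all 6 Purkinje cell markers in cerebellum. Their summed level was 442 to 491 TPM in cortex against 36.5 to 40.6 in cerebellum for projection neurons. It was 36.7 to 52.2 against 2610 to 2730 for granule cells, and 473 to 624 against 5470 to 6020 for Purkinje cells. All 8 choroid plexus markers were also called higher in cerebellum, and all 5 microglia markers and 5 of 6 striatal markers in cortex. Of 5 astrocyte markers, 2 were higher in cerebellum, and of 5 markers of fast-spiking interneurons, 1 was higher and 2 were lower there. None of the markers of oligodendrocytes, of endothelium and mural cells, or of blood was called. In tissue of this kind, fewer cells of a type and less RNA per cell cannot be told apart.

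The members together made up 4290, 4740, 4780 and 3770 TPM in wild-type cortex and 4920, 4950, 5420 and 5250 in wild-type cerebellum. The regions did not overlap, but once the libraries were rescaled by TMM factors they did, at 3780 to 5079 and 4701 to 5281. Inward rectifiers held 22.7% ± 0.865 (SD, n = 4) of all member TPM in cortex and 17.9% ± 0.556 in cerebellum. Two-pore channels held 9.62% ± 0.276 in cortex and 15.0% ± 0.358 in cerebellum, and the ether-à-go-go family 10.0% ± 0.359 and 2.30% ± 0.0709. In cortex, KChIP proteins held 9.88% ± 0.931 and Kv beta subunits 9.83% ± 0.333. The shares of some families are not given here, so these values set no order of families.

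**Figure D1:**
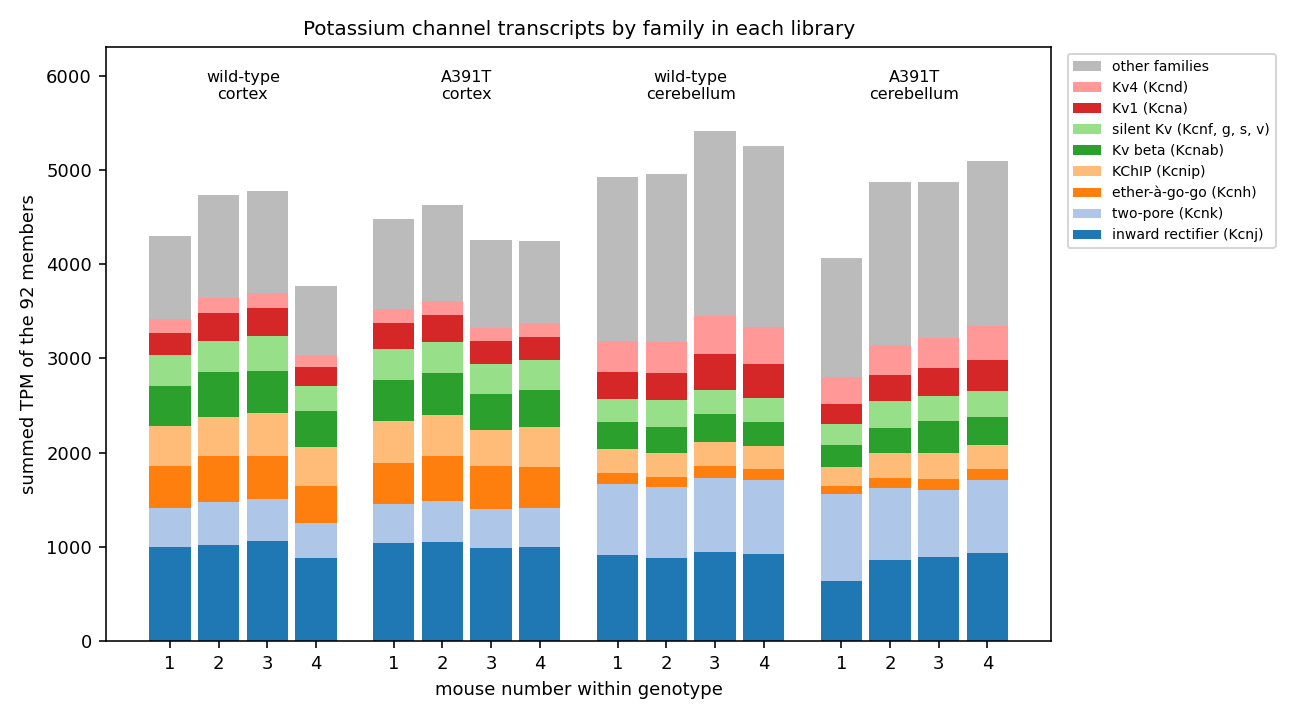
Summed TPM of the 92 potassium channel genes in each of the 16 libraries, stacked by 8 families and the remaining families together, with the mouse number within each genotype on the x axis. The ether-à-go-go layer is narrower in all 8 cerebellum libraries than in any cortex library.

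Few members carried much of the sum. In wild-type cortex the 8 most abundant were Kcnj4 (321 ± 19.8 TPM, SD, n = 4), Kcnab2 (277 ± 17.3), Kcnh3 (266 ± 12.9), Kcnip2 (224 ± 12.2), Kcnj9 (217 ± 32.6), Kcnj10 (212 ± 39.5), Kcnk1 (176 ± 4.29) and Kcnip3 (153 ± 13.6). These held 39.9% to 45.3% of member TPM in a library. In wild-type cerebellum the most abundant included Kcnk1 (378 ± 18.3), Kcnc1 (364 ± 36.9), Kcnj10 (317 ± 21.6), Kcnd2 (254 ± 24.8), Kcnj9 (243 ± 10.2), Kcng4 (239 ± 17.2) and Kcnt1 (237 ± 12.8). Kcnj9, Kcnj10 and Kcnk1 stood in both lists. In the order of cortex, Kcnab2 and Kcnh3 lay within their spread of each other, as did Kcnip2, Kcnj9 and Kcnj10, and in that of cerebellum the same held for Kcnk1 and Kcnc1 and for Kcnd2, Kcnj9, Kcng4 and Kcnt1.

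Comparing cerebellum with cortex in wild-type mice, 80 of the 92 members passed the filter on low counts. Of these, 13 were called higher in cerebellum, or 16.2%, where 10.5% of all 16040 genes tested were. A further 35 members were called lower in cerebellum, or 43.8%, where 14.2% of all genes were. By adjusted p alone, 21 members were higher and 45 lower, beside 34.7% and 33.1% of all genes. The median log2 fold change was -0.57 over the 80 members and 0.02 over all genes. Between the called members and the rest, 8 were higher and 10 lower with an adjusted p under 0.05 but less than 2-fold, and 14 did not pass. Scaled by library totals in place of TMM factors, the calls were 14 and 33, but the median of all genes then moved to 0.14, so directions are relative to that shift. The 12 members under the filter were low in most libraries, and Kcne2 is the exception described with the choroid plexus.

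**Figure D2:**
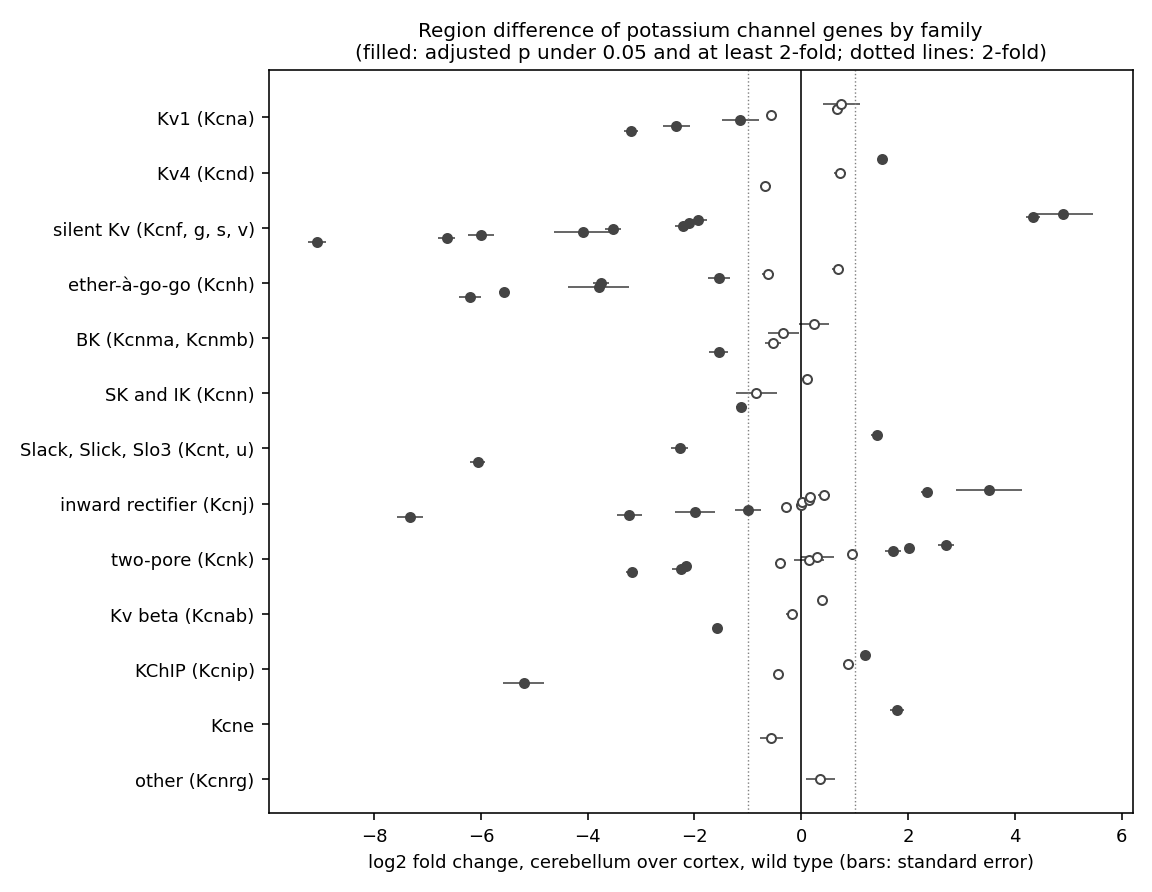
Log2 fold change of cerebellum over cortex in wild-type mice for the tested members of the families drawn, with the standard error as bars. Filled points were called, and they reach from -9.07 for Kcnv1 to 4.91 for Kcnv2, both silent Kv subunits.

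Silent Kv subunits, which form no channel alone and modify Kv2 channels, gave the members with the widest differences. All 10 were called, 8 higher in cortex and 2 higher in cerebellum, where 14.2% and 10.5% of all genes were. Kcnv1 lay at 85.6, 90.1, 106 and 89.0 TPM in wild-type cortex and at 0.238, 0.0659, 0.303 and 0.141 in cerebellum, a log2 fold change of -9.07 ± 0.17 (SE, adjusted p = 1.4e-11). Kcnf1 showed 109.8, 108, 119 and 77.2 TPM in cortex and 1.00, 1.16, 1.25 and 1.19 in cerebellum (-6.64 ± 0.16, adjusted p = 3.9e-11). Neither gene's regions came near to overlapping. Kcng1 fell by 6.00 on the log2 scale, from 14.5 to 27.0 TPM in cortex to 0.301 to 0.545. Kcng3 was low in both regions, with 1.35, 1.93, 1.87 and 0.696 TPM in cortex and 0.0456, 0, 0.0901 and 0.236 in cerebellum (-4.08 ± 0.55, adjusted p = 4.7e-05). The others higher in cortex were Kcns1 (-3.53), Kcng2 (-2.21), Kcns2 (-2.11) and Kcns3 (-1.93).

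Kcng4 took the opposite direction. It lay at 8.31, 11.9, 13.0 and 9.27 TPM in wild-type cortex and at 229.6, 264, 228 and 233 in cerebellum (4.34 ± 0.13, adjusted p = 2.2e-10), and so held most of the silent subunit TPM of the cerebellum. The ratio of Kcnf1 to Kcng4 in a library was 8.32 to 13.2 in cortex and 0.00436 to 0.0055 in cerebellum. Kcnv2, best known from photoreceptors, had 2 counts over the 4 cortex libraries and 80 over the 4 cerebellum libraries. The ratio per total count was 40.3, with an exact 95% interval of 10.8 to 339 that covers counting error only. Its level in cerebellum was 0.480 to 0.740 TPM. Of the Kv2 channels that these subunits join, both Kcnb2 entries fell in cerebellum, by 2.89 and 2.29.

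Inward rectifiers of the Kir2 class, which hold neurons near rest, split in the same way. Kcnj4 lay at 349, 306, 308 and 321 TPM in wild-type cortex and 1.50, 1.65, 4.44 and 1.25 in cerebellum (-7.33 ± 0.25, adjusted p = 5.6e-10), and without the cerebellum of mouse 3 it was at -7.92 ± 0.13. Its relative Kcnj12 lay at 23.1, 25.4, 30.7 and 20.5 in cortex and 143, 141, 139 and 141 in cerebellum (2.35 ± 0.10, adjusted p = 3.1e-09). Kcnj4 was the most abundant member of the cortex and near absent from the cerebellum, while Kcnj12 varied least of the 50 members of at least 5 TPM in wild-type cerebellum, with a coefficient of variation of 1.23%. The ratio of Kcnj4 to Kcnj12 was 10.0 to 15.7 in cortex and 0.00889 to 0.032 in cerebellum. Kcnj2, another of the class, went with Kcnj4 (15.0, 15.1, 22.5 and 14.4 TPM against 1.66, 1.09, 3.05 and 2.21, -3.22 ± 0.24), and Kcnj14 fell by 1.99 at levels of 0.775 to 1.52 TPM in cortex.

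The promoters of Kcnj4, Kcnj12, Kcnf1 and Kcng4 are shown. Within the Kir2 class and within the silent Kv subunits, these pairs had the largest opposite differences for which RefSeq gives a start. Each runs over 300 bases on the strand of the gene, in GRCm38.p6 coordinates, which is a later build than the mm9 of the count data. The dinucleotide CG, which reads the same on both strands, is in capitals.
Kcnj4, chr15:79505192-79505491, minus strand: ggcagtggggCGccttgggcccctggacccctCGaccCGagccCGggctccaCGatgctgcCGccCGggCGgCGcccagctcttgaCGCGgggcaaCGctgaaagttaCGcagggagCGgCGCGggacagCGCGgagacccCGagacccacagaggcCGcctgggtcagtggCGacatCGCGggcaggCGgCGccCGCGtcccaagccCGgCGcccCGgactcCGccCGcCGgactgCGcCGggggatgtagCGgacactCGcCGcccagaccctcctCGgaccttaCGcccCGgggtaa
Kcnj12, chr11:61065554-61065853, plus strand: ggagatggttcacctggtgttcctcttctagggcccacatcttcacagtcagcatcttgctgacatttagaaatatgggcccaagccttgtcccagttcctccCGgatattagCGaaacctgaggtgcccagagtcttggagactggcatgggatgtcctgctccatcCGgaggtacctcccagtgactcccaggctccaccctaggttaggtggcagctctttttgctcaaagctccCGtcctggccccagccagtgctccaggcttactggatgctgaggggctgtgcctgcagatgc
Kcnf1, chr12:17176839-17177138, minus strand: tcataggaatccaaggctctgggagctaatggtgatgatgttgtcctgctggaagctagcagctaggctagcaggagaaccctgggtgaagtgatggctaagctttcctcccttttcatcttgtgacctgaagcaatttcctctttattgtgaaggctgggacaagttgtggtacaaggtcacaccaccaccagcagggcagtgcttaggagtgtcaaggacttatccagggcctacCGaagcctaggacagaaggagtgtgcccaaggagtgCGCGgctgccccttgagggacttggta
Kcng4, chr8:119635631-119635930, minus strand: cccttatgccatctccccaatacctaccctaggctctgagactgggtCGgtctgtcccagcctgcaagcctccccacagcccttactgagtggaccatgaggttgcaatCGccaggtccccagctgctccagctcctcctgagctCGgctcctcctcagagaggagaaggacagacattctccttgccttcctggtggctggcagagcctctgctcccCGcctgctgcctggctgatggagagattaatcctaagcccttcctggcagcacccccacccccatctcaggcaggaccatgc
Kcnj4 held 41 CG, and 3.35% of all 27025 RefSeq promoters of this length held as many or more. Kcnj12 and Kcng4 held 4 each and Kcnf1 held 3, and 38.3% of all promoters held 4 or fewer. At least 1 CG stood in 94.2% of all promoters. Kcnj4 and Kcnf1, which were both higher in cortex, thus lie above and below the median of all promoters. Of the 90 member names, 66 had a promoter in the RefSeq table. The median count was 18 CG over 23 members called higher in cortex, 7 over 9 called higher in cerebellum, 9 over 34 not called and 7 over all promoters, with 3 to 49 and 4 to 41 as the ranges of the called sets.

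**Figure D3:**
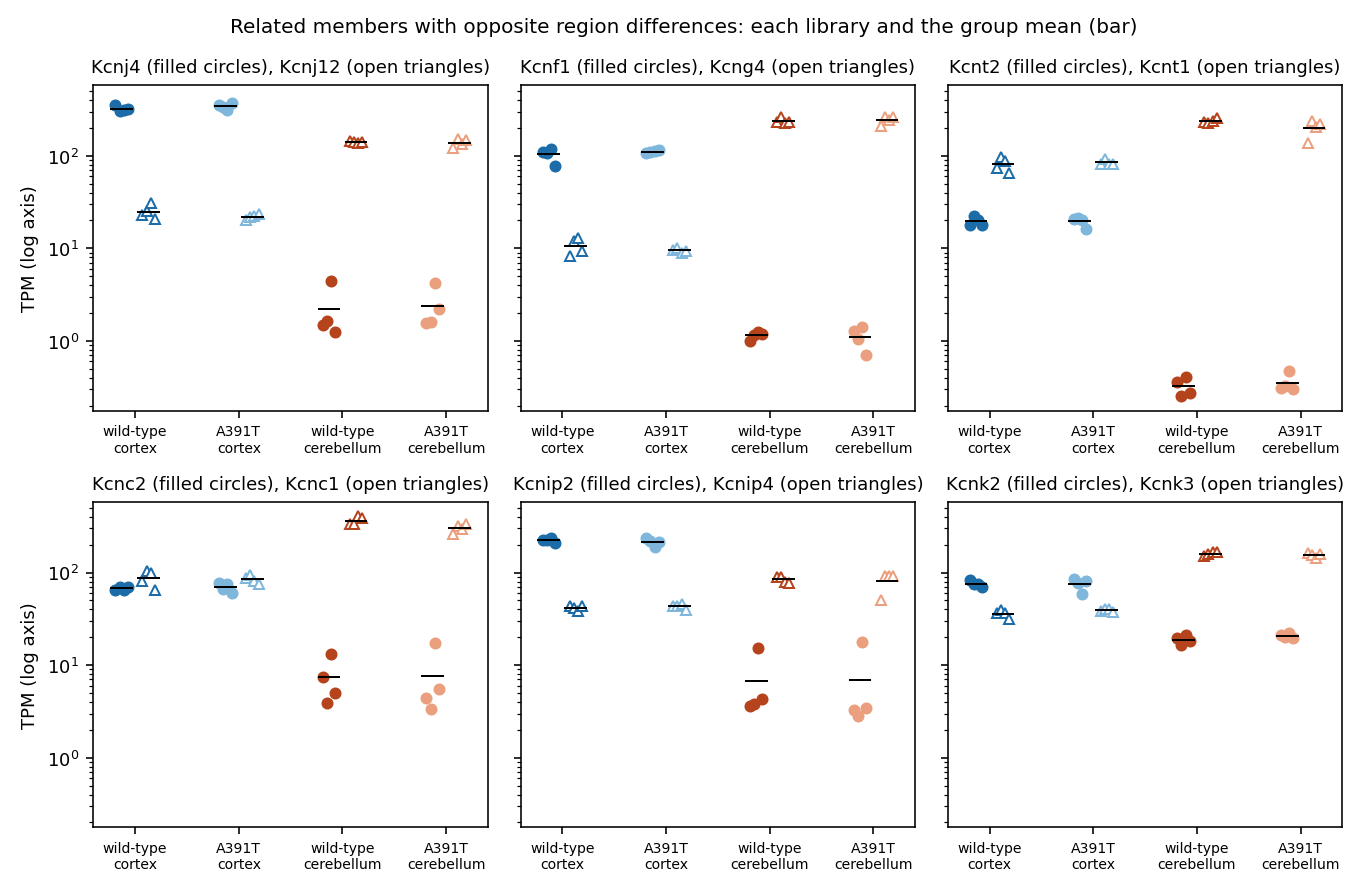
TPM on a log axis of 6 pairs of related members in each library, with the group mean as a bar, for wild-type and A391T cortex and cerebellum. In every pair the filled gene is lower and the open gene higher in cerebellum than in cortex. Most libraries of both genotypes lie side by side. Among the exceptions are high cerebellum libraries of mouse 3 in Kcnj4, Kcnc2 and Kcnip2. The A391T cerebellum library of mouse 1 is low in Kcnt1 (136 TPM) and Kcnip4 (50.1).

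Of the G protein-activated subunits, Kcnj9 was near equal, at 226, 237, 237 and 169 TPM in cortex and 235, 232, 251 and 252 in cerebellum (0.01 ± 0.09, adjusted p = 0.96). Kcnj3 differed by -0.28 ± 0.08 (adjusted p = 0.0095). A gene on the other strand overlaps 31.1% of its exon bases, where the strand-blind count leaves reads out as ambiguous. Kcnj6 stood on the threshold at -1.0 ± 0.24 (adjusted p = 0.0033), and with each animal as a block it missed the 2-fold criterion, at -0.95 (adjusted p = 0.0053). It also missed it without the cortex of mouse 2 (-0.86) or 3 (-0.84) or the cerebellum of mouse 1 (-0.95) or 2 (-0.89). Kcnj11, the pore of ATP-sensitive channels in neurons, differed by -0.01 ± 0.08 (adjusted p = 0.92), and its partner Abcc8 was called higher in cerebellum (1.35 ± 0.16, SE, adjusted p = 1.38e-05).

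Of 7 tested members of the ether-à-go-go family, 5 were called lower in cerebellum and none higher, where 14.2% and 10.5% of all genes were. Kcnh2 was higher at less than 2-fold. Kcnh3, a channel of forebrain neurons, lay at 274, 280.4, 257 and 254 TPM in cortex and 5.70, 7.09, 6.23 and 5.93 in cerebellum (-5.57 ± 0.09, adjusted p = 6.4e-12), the smallest adjusted p of all members in this comparison. Kcnh4 was at 24.3, 34.5, 28.0 and 22.6 TPM in cortex and 0.233, 0.526, 0.499 and 0.362 in cerebellum (-6.21 ± 0.21). The groups were far apart for both. Kcnh7 fell by 3.75 and Kcnh6 by 1.54 on the log2 scale. Kcnh5 fell by 3.79 with a wide error of 0.57, with cerebellum of mouse 3 at 3.17 TPM beside 0.438 to 0.567 in the others and cortex from 6.13 to 21.1. Without that cerebellum library its change was -4.98 ± 0.50. Kcnh2, the erg channel known from the heart, went slightly the other way (33.9, 39.3, 39.3 and 26.1 TPM in cortex, 62.0, 58.9, 64.1 and 61.5 in cerebellum, 0.68 ± 0.11, adjusted p = 0.00016), so that the ratio of Kcnh3 to Kcnh2 was 6.55 to 9.75 in cortex and 0.0919 to 0.12 in cerebellum.

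Among the Kv7 channels, which carry the M current that dampens excitability, Kcnq5 was at 34.8, 40.7, 39.6 and 27.1 TPM in cortex and 0.629, 0.370, 0.901 and 0.446 in cerebellum (-6.07 ± 0.22, adjusted p = 8.2e-10). Kcnq3 was at 27.0, 50.6, 51.2 and 12.3 in cortex and 7.10, 5.68, 10.7 and 9.89 in cerebellum (-2.23 ± 0.39, adjusted p = 0.00036).

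Kv3 channels repolarise fast and let neurons fire at high rates. Kcnc1 lay at 81.6, 103, 98.7 and 64.1 TPM in wild-type cortex and 332, 334, 405 and 386 in cerebellum (1.92 ± 0.13, adjusted p = 1.7e-07). It rose without overlap. Kcnc2 went the other way, from 64.6, 69.9, 65.5 and 70.7 TPM in cortex to 7.44, 3.92, 13.3 and 5.03 in cerebellum (-3.34 ± 0.29, adjusted p = 1.2e-06). Kcnc4 was nearly level at 115 to 130.0 and 118 to 124 TPM (-0.16 ± 0.06, adjusted p = 0.041).

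Kv4 channels carry the fast A-type current of dendrites. Kcnd2 rose from 84.5, 82.9, 83.1 and 70.4 TPM in cortex to 231, 235, 279.8 and 270.5 in cerebellum (1.51 ± 0.08, adjusted p = 1.6e-08). Kcnd3 was higher in cerebellum at less than 2-fold (0.72), and Kcnd1 lower (-0.67), both with an adjusted p of 0.00011. Their calcium-sensing partners, the KChIP proteins, split by member. Kcnip2 was at 226, 222, 238 and 209 TPM in cortex and 3.62, 3.76, 15.4 and 4.30 in cerebellum (-5.20 ± 0.39, adjusted p = 3.8e-07). Kcnip1 was at 10.9, 12.8, 14.9 and 13.5 in cortex and 33.3, 35.5, 32.6 and 31.2 in cerebellum (1.20 ± 0.09), and Kcnip4 at 43.7, 41.0, 38.1 and 43.7 and 90.3, 89.6, 79.6 and 77.7 (0.87 ± 0.08, adjusted p = 3e-06, under 2-fold). Kcnip3 was lower in cerebellum at less than 2-fold, with 149.9, 139, 172 and 149.6 TPM in cortex and 127, 123, 128 and 125 in cerebellum (-0.43 ± 0.06, adjusted p = 0.00012). The ratio of Kcnip2 to Kcnip4 was 4.78 to 6.26 in cortex and 0.0401 to 0.193 in cerebellum. Among further Kv4 partners that are not Kcn genes, Dpp6 was higher in cerebellum (0.62 ± 0.08, SE) and Dpp10 slightly lower (-0.24 ± 0.06).

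Kv1 channels sit on axons and near their nodes. Kcna1, the most abundant, was at 80.3, 99.9, 99.6 and 70.8 TPM in cortex and 141, 145, 174 and 159 in cerebellum (0.67 ± 0.10, adjusted p = 0.00016, under 2-fold). Kcna4 (-3.19), Kcna5 (-2.34) and Kcna3 (-1.14) were called lower in cerebellum. The call of Kcna3 was lost without the cortex of mouse 2 (-0.94) or the cerebellum of mouse 1 (-0.97). Kcna2 was not called, with 43.9, 83.3, 78.6 and 21.7 TPM in cortex and 77.4, 76.5, 139.8 and 132 in cerebellum (0.75 ± 0.35, adjusted p = 0.078), and without the cortex of mouse 4 it was at 0.48 ± 0.25. Of the beta subunits that bind Kv1 channels, Kcnab2 fell from 278, 298, 277 and 256 TPM in cortex to 109, 98.8, 108 and 98.7 in cerebellum (-1.57 ± 0.07, adjusted p = 3e-09). Kcnab1 rose by 0.38 and Kcnab3 differed by -0.18 ± 0.11. The adhesion protein Cntn2, which gathers Kv1 channels beside the node, was called higher in cerebellum (1.40 ± 0.11, SE), whereas its partner Cntnap2 was lower at less than 2-fold (-0.64 ± 0.14).

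The sodium-activated channels formed another opposite pair. Kcnt1 was at 74.2, 96.9, 87.1 and 64.8 TPM in cortex and 229.9, 227, 238 and 255 in cerebellum (1.41 ± 0.10, adjusted p = 3.4e-07), and Kcnt2 at 17.8, 22.3, 20.2 and 18.0 and 0.360, 0.255, 0.403 and 0.273 (-6.06 ± 0.14, adjusted p = 3.3e-11). Kcnu1, a channel known from sperm, fell by 2.28 at levels of 3.34 to 4.22 TPM in cortex. The BK channel pore Kcnma1 did not separate the regions, with 32.6, 59.9, 56.6 and 21.3 TPM in cortex and 42.8, 46.2, 67.5 and 67.6 in cerebellum (0.24 ± 0.28, adjusted p = 0.45). Of its accessory subunits, Kcnmb2 was called lower in cerebellum (-1.55), and of the leucine-rich partners that are not Kcn genes, Lrrc38 was called higher (2.32 ± 0.11, SE, adjusted p = 1.07e-08) and Lrrc55 lower (-2.70 ± 0.14, adjusted p = 2.23e-08). Of the SK channels, which follow the action potential with a slow hyperpolarisation, Kcnn2 was the most abundant and differed by 0.10 ± 0.08 (38.9 to 46.3 TPM in cortex, 46.7 to 53.4 in cerebellum, adjusted p = 0.28). Kcnn1 was called lower in cerebellum (-1.12 ± 0.10).

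Two-pore channels carry the leak that sets rest. Of 10 tested, 3 were called higher in cerebellum and 3 lower, where 10.5% and 14.2% of all genes were. Kcnk3 rose from 36.6, 39.2, 36.3 and 31.3 TPM to 150.2, 158, 167 and 166 (2.01 ± 0.07, adjusted p = 7.7e-10), Kcnk12 by 1.71 and Kcnk10 by 2.71. Kcnk10 lay at 3.09, 4.44, 3.10 and 2.58 TPM in cortex and 21.0, 21.6, 28.2 and 26.3 in cerebellum. Its mechanically gated relatives Kcnk2 and Kcnk4 went the other way. Kcnk2 was at 82.4, 74.9, 75.0 and 70.2 TPM in cortex and 19.6, 16.4, 21.3 and 18.4 in cerebellum (-2.15 ± 0.08, adjusted p = 1.8e-09), and Kcnk4 at 38.2, 45.6, 41.9 and 35.8 and 4.93, 5.02, 4.60 and 5.28 (-3.17 ± 0.11). Kcnk6 fell by 2.25. Kcnk9, like Kcnk3 an acid-sensitive channel, differed by 0.14 ± 0.28 (adjusted p = 0.67), with 35.0, 58.4, 48.9 and 18.2 TPM in cortex and 42.4, 38.2, 64.0 and 52.8 in cerebellum. Kcnk1, the most abundant of the family, was at 172, 175, 183 and 175 TPM in cortex and 391.02, 394, 355 and 370.2 in cerebellum (0.95 ± 0.06, adjusted p = 8e-08), just under 2-fold. Scaled by library totals in place of TMM factors, Kcnk1 was at 1.07 and called.

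Kcne2 and Kcnj13 are used by the choroid plexus, the epithelium that makes cerebrospinal fluid. Kcne2 lay at 0.331, 0.424, 0.561 and 0.189 TPM in wild-type cortex and at 24.8, 32.9, 0.514 and 22.5 in cerebellum, with mouse 3 as low as cortex. Because of that library it did not pass the filter, and without the filter its log2 fold change was 5.56 ± 0.95 (SE, adjusted p = 0.00025). Kcnj13 lay at 0.907, 0.872, 0.769 and 0.777 TPM in cortex and 14.6, 15.9, 1.76 and 10.4 in cerebellum (3.51 ± 0.62, adjusted p = 0.0004), again with mouse 3 near the cortex values. The 8 choroid plexus markers summed to 7120, 8130, 55.4 and 5360 TPM in the same 4 cerebellum libraries, and to 8.99 to 51.3 in cortex. Without mouse 3, Kcnj13 was 3.85 ± 0.24 higher. In A391T cerebellum the markers summed to 2410, 5850, 3320 and 54.1 TPM, beside 10.5, 22.1, 13.9 and 0.459 TPM of Kcne2 and 2.13, 10.6, 8.71 and 1.64 of Kcnj13. The libraries low in the markers were thus those low in Kcne2. How much choroid plexus each piece held and its part in these differences was not tested. Of the exon bases of Kcnj13, 49.1% overlap Gigyf2 on the other strand. Reads on shared exon bases are left out as ambiguous, which can lower the level of Kcnj13. The remaining tested Kcne genes were Kcne1l, higher in cerebellum (5.04, 4.49, 6.06 and 4.76 TPM against 20.3, 21.9, 17.2 and 18.4, 1.79 ± 0.13, adjusted p = 2.3e-07), and Kcne4 (-0.56 ± 0.21, under 2-fold).

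**Figure D4:**
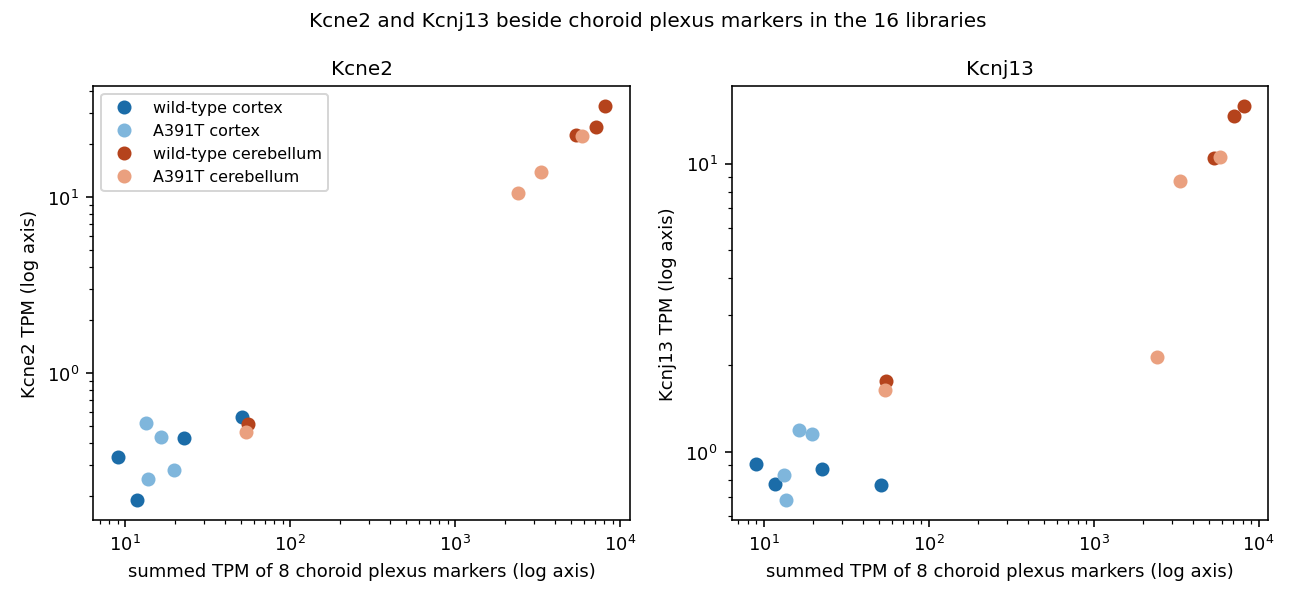
TPM of Kcne2 and Kcnj13 in the 16 libraries against the summed TPM of 8 choroid plexus markers, all on log axes. The 6 cerebellum libraries with 2410 TPM or more of the markers hold 10.5 to 32.9 TPM of Kcne2, and the other 2 cerebellum libraries lie at cortex levels with 0.514 and 0.459 TPM.

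Of 4 members known from glia and pericytes, none was called. Kcnj10, the potassium buffering channel of astrocytes, lay at 186, 232, 258 and 173 TPM in wild-type cortex and 328, 285, 333 and 322 in cerebellum (0.43 ± 0.11, adjusted p = 0.0042, under 2-fold). Its partner Kcnj16 lay at 21.1, 22.9, 24.7 and 25.7 and 27.9, 28.4, 32.5 and 28.5 (0.16 ± 0.08, adjusted p = 0.082). The 5 astrocyte markers summed to 519 to 611 TPM in cortex and 1140 to 1200 in cerebellum. Kcnj8, a channel of pericytes, was level, with 9.29, 9.76, 9.29 and 8.92 TPM in cortex and 10.6, 11.4, 11.6 and 12.1 in cerebellum (0.14 ± 0.09, adjusted p = 0.2), and the vascular markers summed to 396 to 500 and 411 to 464. Kcnk13, which microglia use, differed by -0.39 ± 0.10 (adjusted p = 0.0055, 9.64 to 11.1 TPM in cortex and 7.34 to 9.53 in cerebellum), whereas the 5 microglia markers summed to 428 to 470 in cortex and 148 to 158 in cerebellum. The part of cell numbers in these differences was not tested.

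Members that are neighbours in the genome did not always move together. Both Kcnb2 entries, 0.674 kb apart on chromosome 1, fell, with -2.89 and -2.29. On chromosome 11 (mm9), Kcnj16 at chr11:110829347-110889282 and Kcnj2 at chr11:110927478-110938135 lie 38.2 kb apart on the plus strand, with log2 fold changes of 0.16 and -3.22. On chromosome 6, Kcna5 at chr6:126482571-126485573, Kcna1 at chr6:126586481-126595819 and Kcna6 at chr6:126658347-126690680 stand in a row on the minus strand, with -2.34, 0.67 and -0.57. Exons of Kcna6 are overlapped over 39.5% of their bases by a gene on the other strand. On chromosome 3, Kcna3 at chr3:106839080-106841047 and Kcna2 at chr3:106904485-106909797 are 63.4 kb apart, with -1.14 and 0.75. On chromosome 1, Kcnj9 at chr1:174251164-174259394 and Kcnj10 at chr1:174271341-174304216 lie 11.9 kb apart and differed little, with 0.01 and 0.43. Kcnmb1 lies within Kcnip1 on chromosome 11 on the opposite strand, with -0.34 beside 1.20.

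In A391T mice the same comparison of regions tested 81 members. It called 14 higher in cerebellum, where 9.8% of all 16005 genes were, and 36 lower, where 14.9% were. The median log2 fold change was -0.72 over members and 0.03 over all genes, and -0.52 and 0.02 without mouse 1 in both regions. All 13 members called higher and all 35 called lower in wild type were called in the same direction in A391T, which is 92.9% and 97.2% of the A391T calls. Over all genes, 1353 of 1685 called higher and 2059 of 2270 called lower in wild type were called alike in A391T, or 80.3% and 90.7%, which is 86.3% and 86.5% of the A391T calls. Without mouse 1 in both regions the calls were again 14 and 36. Kcnv1 was at 89.8, 87.1, 87.2 and 80.2 TPM in A391T cortex and 0.111, 0.167, 0.773 and 0.216 in cerebellum (-8.22 ± 0.30), Kcnj4 at 351, 336, 312 and 374 and 1.57, 1.60, 4.27 and 2.19 (-7.28 ± 0.24). Kcnh3 was at 258, 282, 291 and 269.9 and 6.17, 5.70, 6.30 and 5.17 (-5.65 ± 0.10). Of those higher in cerebellum, Kcng4 was at 9.59, 10.1, 8.82 and 9.33 and 208, 259.8, 243 and 263 (4.58 ± 0.08) and Kcnc1 at 87.9, 93.5, 81.9 and 74.7 and 263, 320.0, 296 and 333 (1.74 ± 0.08). Without mouse 1 in both regions these 5 were at -7.91 ± 0.20, -7.12 ± 0.19, -5.75 ± 0.07, 4.62 ± 0.07 and 1.79 ± 0.08, in the order given.

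The calls of the genotypes differed for 2 members. Kcnk1 was called higher in A391T cerebellum (1.30 ± 0.15, adjusted p = 3.7e-05), with 161, 169, 159 and 171 TPM in cortex and 562, 402, 365 and 402 in cerebellum. Without mouse 1 in both regions it was 1.09 ± 0.06. Kcnn3 was called lower (-1.58 ± 0.35, adjusted p = 0.0027), with 6.18, 6.57, 5.43 and 5.62 TPM in cortex and 0.528, 2.58, 2.72 and 2.95 in cerebellum. Without mouse 1 it was -1.23 ± 0.14. In wild type Kcnn3 stood at -0.84 ± 0.38 (adjusted p = 0.071), and at -1.14 ± 0.21 with a call once the cortex of mouse 4 was left out. The difference between genotypes did not pass for either gene, with an interaction of 0.37 ± 0.17 for Kcnk1 (adjusted p = 0.77) that became 0.15 ± 0.08 without A391T mouse 1, and of -0.72 ± 0.56 for Kcnn3 (adjusted p = 0.77) that became -0.37 ± 0.50 without that mouse (adjusted p = 0.94).

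**Figure D5:**
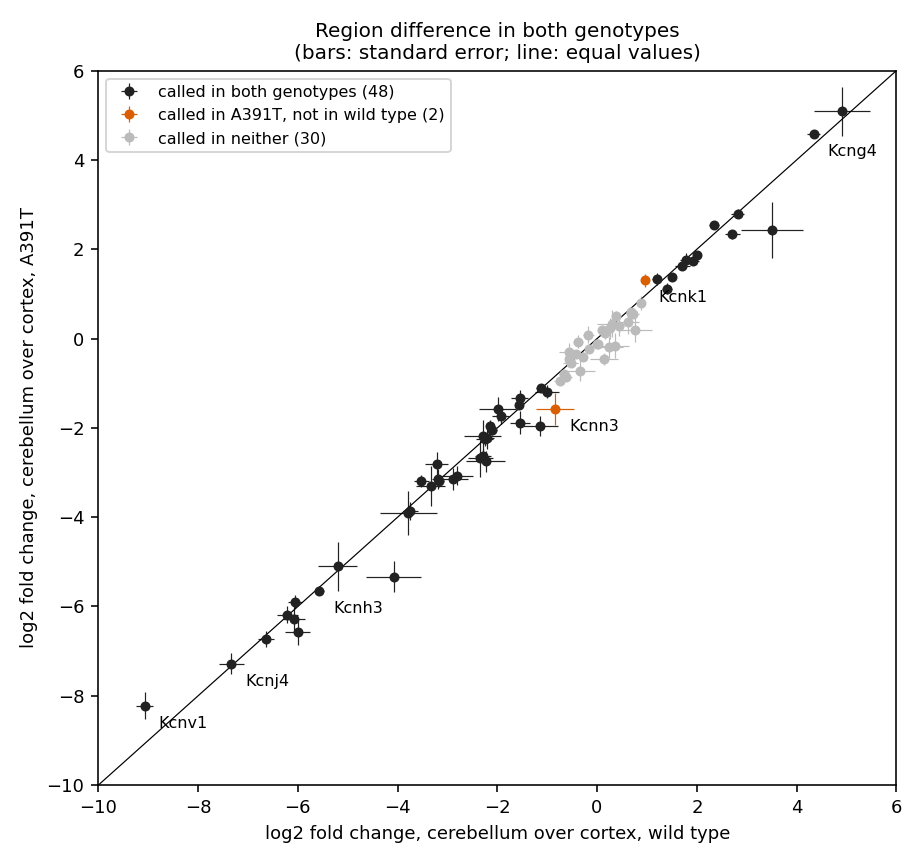
Log2 fold change of cerebellum over cortex for the 80 members tested in both genotypes, wild type on the x axis and A391T on the y axis, with standard errors as bars and the line of equal values. The 48 members called in both genotypes all lie in the lower left or upper right, and Kcnk1 and Kcnn3 are the 2 called in A391T and not in wild type.

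The effect of the Slc39a8 allele itself was compared within each region. In cortex none of 79 tested members was called by edgeR's quasi-likelihood test, and 2 of 15815 genes, or 0.0126%, had an adjusted p under 0.05. An unadjusted p under 0.05 was reached by 2 members and 748 genes, and DESeq2 gave 14 genes and 0 members an adjusted p under 0.05. In cerebellum none of 78 tested members and 0.0% of 15668 genes were called. There, 4 members and 1340 genes had an unadjusted p under 0.05, and DESeq2 gave 37 genes and 0 members. The median over members was -0.01 in cortex and -0.04 in cerebellum.

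The 5 members with the smallest p in cortex were Kcnj2, Kcnn2, Kcnk1, Kcnd1 and Kcnj12. Kcnj2 was at 15.0, 15.1, 22.5 and 14.4 TPM in wild type and 12.8, 12.0, 11.6 and 12.8 in A391T (-0.46 ± 0.12, adjusted p = 0.87). The groups did not overlap, but wild-type mouse 3 stood well above the rest, and without it the difference was -0.30 ± 0.07. Kcnn2 was at 38.9, 45.9, 46.3 and 39.4 TPM in wild type and 34.8, 36.9, 41.2 and 36.9 in A391T (-0.21 ± 0.07, adjusted p = 0.99), with overlap. Kcnd1, Kcnk1 and Kcnj12 differed by 0.18 ± 0.09, -0.12 ± 0.05 and -0.20 ± 0.11. In cerebellum Kcnc1, Kcne4, Kcnmb1 and Kcna3 were among the 5. Kcnc1 was at 332, 334, 405 and 386 TPM in wild type and 263, 320.0, 296 and 333 in A391T (-0.21 ± 0.08, adjusted p = 0.53). The groups overlapped in 1 library, and without A391T mouse 1 the difference was -0.19 ± 0.07. Kcne4, Kcnmb1 and Kcna3 differed by 0.55 ± 0.23, -0.68 ± 0.30 and -0.66 ± 0.31, all with an adjusted p of 0.53. Without A391T mouse 1 these were 0.44 ± 0.24, -0.47 ± 0.26 and -0.46 ± 0.26. By the library names of the RPKM table they were 0.03, 0.05 and -0.79, so that the direction of Kcnmb1 turned, and Kcnc1 was at -0.12. In cortex by those names, Kcnj2 was at -0.16 and Kcnn2 at -0.07.

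The interaction of region and genotype was tested for 83 members. None passed, as was so for 0.0% of the 16589 genes tested. An unadjusted p under 0.05 was reached by 1 member and 805 genes, and DESeq2 gave 1 gene and 0 members an adjusted p under 0.05. The 5 members with the smallest p were Kcnk1 (0.37 ± 0.17), Kcnk13 (0.34 ± 0.18), Kcnk10 (-0.37 ± 0.20), Kcna3 (-0.80 ± 0.45) and Kcnk9 (-0.59 ± 0.34), all with an adjusted p of 0.77. Without A391T mouse 1 the last 4 of these were at 0.17 ± 0.16, -0.33 ± 0.22, -0.59 ± 0.47 and -0.54 ± 0.37.

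Libraries of a group differed in ways that touched some members more than others. Over the 66 members of at least 5 TPM in wild-type cortex, the coefficient of variation was 2.43% to 53.9% with a median of 14.0%. Mouse 4 gave the lowest value for 50 of them. Among the widest spreads were those of Kcnq3 (53.9%), Kcnn3 (53.0% at 4.66, 7.47, 6.82 and 1.46 TPM), Kcna2 (51.5%) and Kcnma1 (43.9%), all lowest in mouse 4. Kcnc4 varied by 6.38% and Kcnj8 by 3.68% in the same libraries. That library had the fewest counts of the 16, 20813432, and the highest share of reads that aligned to several places, 12.1%. Without it, 14 members were called higher and 37 lower. In cerebellum of A391T mice, mouse 1 gave the lowest value for 34 of 49 such members, among them Kcnj10 at 134 TPM beside 274 to 350 and Kcnt1 at 136 beside 203 to 237. Kcnk1 was highest there, at 562 TPM beside 365 to 402. The 5 interneuron markers summed to 4890 TPM in that library beside 2200 to 2290 in the other A391T cerebella. Of these, Pvalb, also found in Purkinje cells, was at 4420 beside 1770 to 1870 and Gad1 at 376 beside 302 to 310.0, while Gad2 (91.6 beside 103 to 111) and Tac1 (1.46 beside 1.89 to 23.8) were lowest there. The Purkinje cell markers summed to 5980 beside 5600 to 6360, and granule cell markers summed to 2130 beside 2510 to 2790. The part of these differences in the members' values was not tested.

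Mouse 3 of each genotype was high in cerebellum for a set of members of the cortex. Kcnip2 was at 15.4 TPM in wild-type mouse 3 beside 3.62 to 4.30 in the others, and at 18.0 in A391T mouse 3 beside 2.84 to 3.41. Kcnj4 was at 4.44 beside 1.25 to 1.65 in wild type, and at 4.27 beside 1.57 to 2.19 in A391T. Kcnc2 was at 13.3 and 17.3 TPM in these libraries. The 7 projection neuron markers summed to 40.6 and 37.2 TPM there, beside 36.5 to 39.8 and 32.6 to 42.6 in the others, and the 6 striatal markers to 251 and 252 beside 259 to 288 and 250.0 to 311. The 5 interneuron markers summed to 2070 and 2210, beside 1950 to 2260 and 2200 to 4890. Within these lists 2 single markers, chosen after their values were seen, stood well above the other cerebella in both libraries, while Gad2 was highest there by little and Ppp1r1b was lowest. Tac1, of the interneuron list, was at 12.2 and 23.8 beside 3.39 to 8.35 and 1.46 to 2.37, and Drd2, of the striatal list, at 10.7 and 10.3 beside 1.62 to 2.47 and 1.13 to 2.74. Leaving these libraries out moved Kcnip2 from -5.20 to -6.01 in wild type and from -5.10 to -6.16 in A391T, and the calls of members in wild type from 13 and 35 to 14 and 36, while the counts of 14 and 36 in A391T did not move. By the names of the RPKM table, the A391T library in question would be a wild-type one. In A391T cortex, mouse 3 held 265 TPM of the striatal markers beside 665 to 907 in the others, and was lowest for Kcnip2 (187 beside 217 to 236), Kcnk2 (59.4 beside 76.5 to 84.5) and Kcnab1 (40.7 beside 52.2 to 61.6). Their dependence on the dissection was not tested.

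Genes that work with potassium channels without a Kcn name were looked at as well. Of 18 such partners, 17 were tested in wild type. Of these, 3 were called higher in cerebellum, namely Lrrc38, Cntn2 and Abcc8, and 1 lower, Lrrc55. Over all genes, 10.5% were called higher and 14.2% lower. Amigo1, which travels with Kv2 channels, was level at 215 and 217 TPM (mean of n = 4) in cortex and cerebellum. Lgi1, a secreted protein bound by Adam22 and Adam23, was lower in cerebellum at less than 2-fold (-0.86 ± 0.07, SE). The Hcn channels, which admit sodium and potassium on hyperpolarisation, were led by Hcn2 at 274 and 300 TPM (-0.02 ± 0.07), and none of the 4 was called.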

How the data were processed

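Per the labels, RNA was extracted from snap-frozen tissue and made into poly(A)-selected, directional libraries. The authors mapped reads of 50 bases to mm9 by STAR, and HTSeq then assigned them to Ensembl genes without regard to strand. Their criteria for a difference, an adjusted p and a fold, were followed here. The deposited counts were used as they stand. The authors' deposited RPKM table served for gene names and lengths, from which TPM were computed, and for the comparison of library names. These lengths lay within 5% of the bases of all annotated exons for 64 of 92 members. Reads without a feature (10.2% to 13.2%), ambiguous between genes (2.20% to 2.75%) or aligned to several places (8.41% to 12.1%) stayed out. Genes were filtered with filterByExpr and tested with edgeR 4.0.16 (TMM factors, quasi-likelihood F test, Benjamini-Hochberg adjustment over all genes) within the groups compared, and DESeq2 1.42.0 was an alternative. The code was tested on simulated counts. The members, families, partner and marker lists were chosen with earlier results of these data known. Named were the 12 called members with the largest change per direction in wild type, the 8 most abundant per region, the most abundant per family, the 5 with the smallest p per genotype test and interaction, those whose call differed between genotypes, and Kcnj8, Kcnj10, Kcnj13, Kcnj16, Kcne2 and Kcnk13. Some members that this rule takes are not reported here. All others were chosen after their values were seen. Since both regions came from the same animals, the animal was added as a block in an alternative. Deviations of same-numbered libraries from their group means correlated at -0.0909 to 0.119 in wild type and -0.0994 to 0.0225 in A391T. The study's reporting summary calls the mice littermates, and which of them shared a litter is not given in the sources used here.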

Additional observations from a re-analysis of the deposited data

Results flagged for a closer look

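Of 46 named members in 4 groups each, 17 values stood far from the other 3 libraries of their group by Dixon's criterion, where chance flags about 1 in 20 groups. In wild-type cerebellum, mouse 3 was highest for Kcnip2 (15.4 TPM), Kcnh5 (3.17), Kcnj4 (4.44) and Kcnj16 (32.5), and mouse 2 for Kcng4 (264). In A391T cerebellum, mouse 3 was highest for Kcnip2 (18.0), Kcnv1 (0.773) and Kcnt2 (0.47), mouse 4 for Kcnd1 (7.47), and mouse 1 was lowest for Kcnn3 (0.528) and Kcnip3 (122). In wild-type cortex, mouse 4 was lowest for Kcnj9 (169) and Kcnd2 (70.4), mouse 3 highest for Kcnj2 (22.5) and Kcnmb1 (1.97), and mouse 2 for Kcnv2 (0.0488, beside 0 in the others). With 0 in the others any count gives a flag, and that of Kcnv2 rests on 2 counts. In A391T cortex, mouse 2 was highest for Kcnt1 (92.9).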

How the results depend on the processing

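Over 18 alternatives in wild type and 19 in A391T, members called higher in cerebellum numbered 12 to 15 and 11 to 15, and members called lower 31 to 37 and 32 to 37. With adjusted p alone, 21 and 20 were higher and 45 and 46 lower. Leaving out single libraries gave 13 to 14 higher and 33 to 37 lower in wild type, and 14 to 15 and 36 in A391T. With the animal as a block, 13 were higher and 34 lower in wild type and 14 and 36 in A391T, and the call that changed was that of Kcnj6. Of 48 members called in wild type, 43 kept their call under each alternative. Kcna3, Kcnj6, Kcnn1, Kcnq3 and Kcnj13 lost it under some, Kcnq3 (-1.78) and Kcnj13 (2.78) only with the 2 mice per genotype whose names match in both sources, where Kcna3 was at -0.46. Kcnk1 was called with library totals (1.07). In A391T, 43 of 50 kept it, and Kcnk1, Kcnn3, Kcnt1, Kcnmb2, Kcnn1, Kcnj6 and Kcnj13 lost it when tested against a 2-fold change.
Some directions turned among named members. In wild type Kcnj9 was at -0.01 with DESeq2 and with its size factors in edgeR, and Kcnn2 at -0.01 with matching names. In A391T, library totals gave Kcnj9 0.00 and Kcnk13 0.06, and matching names gave Kcnk13 0.07, Kcnj10 -0.15 and Kcnj16 -0.03. The table's library names gave Kcnmb1 0.05 for genotype in cerebellum. Without single libraries, Kcnk9 ranged from -0.10 to 0.38 and Kcnj9 from -0.10 to 0.04 in wild type, and Kcnk13 from -0.23 to 0.04, Kcnrg from -0.34 to 0.12 and Kcnma1 from -0.36 to 0.04 in A391T. No member was called for genotype or interaction under any alternative, while DESeq2 called 2 genes lower in cortex and 5 higher and 5 lower in cerebellum, and one model over all libraries called 2 higher in cerebellum, by both criteria. The 1 gene that edgeR called lower in cortex was lost with RLE size factors, library totals, the table's names, one model or without most single libraries. Without gene length, the members summed to 5830 CPM in wild-type cortex and 7060 in cerebellum, in place of 4390 and 5130 TPM. The alternative without A391T mouse 1 was added after seeing the data. The cause of these changes was not tested. Members of a few counts, such as Kcng3 and Kcnv2, are limited by depth.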
